A study of Mus musculus with 4 samples.

Results

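The genes described here are 8 genes that mature brown adipocytes use, Ucp1, Cidea, Cidec, Adipoq, Plin1, Elovl3, Dio2 and Ppargc1a. They were taken by symbol from the 32285 genes counted, cell by cell, in the SVF (stromal vascular fraction) that was prepared from the BAT (brown adipose tissue) of mice. No measured value entered the rule, but the genes were chosen with earlier results of these data known. The SVF is what remains of BAT after collagenase digestion once the floating fat cells have been drawn off, so it holds immune, stromal and vascular cells and should hold few mature adipocytes. The question was therefore where the transcripts of adipocytes sit in such a preparation, that is, in few barcodes or in many, and in barcodes of which cell type. A barcode is the tag of a droplet, and a unique molecular identifier (UMI) count is a count of captured transcripts.

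Each of the 4 groups was measured in 1 library. WT mice were 10 weeks old and db/db mice either 8 or 16 weeks old (8w and 16w in the plots), and mice on a high-fat diet (HFD) were labelled as 10 weeks old. Where 4 values follow each other without names they stand in this order. The db/db mice carry a mutation of the leptin receptor in all tissues, whereas HFD mice become obese through food of 60% fat calories. By the methods of the study all mice were male, each library pooled the SVF of 3 mice, and the diet began at 10 weeks of age and lasted 10 weeks, so the labelled age leaves the age of the HFD mice unsettled. With 1 library a group no difference between groups could be tested, and the 95% intervals given with levels and ratios cover counting error only.

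The libraries held from 6517 to 18306 barcodes and from 28504069 to 61828295 UMIs. Barcodes with at least 15% of their UMIs on mitochondrially encoded genes, the limit of the study, made up 28.0% in WT, 35.6% in 8-week db/db, 1.04% in 16-week db/db and 68.5% in HFD. These barcodes were shallower, with a median of 1446, 740, 781.5 and 1645 UMIs against 6213, 3167, 2461 and 5079.5 UMIs in the others. The 16-week db/db library stood apart in 2 further ways. Xist, the RNA that silences an X chromosome in females, had 196 CPM (counts per 1000000 UMIs) there and from 0.194 to 0.681 CPM elsewhere, and 4 genes of the Y chromosome had 17.5 CPM against 162 to 187 CPM. These values are at odds with the male mice of the methods, so the sex of the 16-week mice is unsettled. Differences of this library from the others cannot be told apart from a difference in sex. Of the barcode tags, from 16 to 97 were shared by a pair of libraries. Lineages were assigned by gates, in which a barcode needed UMIs of at least 3 genes of a marker list (10 myeloid, 10 stromal, 10 endothelial or 12 lymphoid genes) and a lead of at least 2 genes over every other list. All markers of the 4 gate lists had UMIs in all 4 libraries. The summed level of the endothelial list was 141, 129.6, 640 and 2156 CPM, that of 7 mural cell genes 10.1, 23.8, 125 and 489 CPM, of 8 genes of skeletal muscle fibres 21.2, 16.4, 4.25 and 36.9 CPM, of 6 Schwann cell genes 2.86, 5.85, 5.05 and 32.2 CPM, and of 5 red cell genes 442, 2139, 43155 and 69.6 CPM. These lists thus differed between libraries too, and their part in the results was not tested.

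Brown adipocytes burn fat for heat. Ucp1 forms the proton channel of their inner mitochondrial membrane that turns respiration into heat, Dio2 makes active thyroid hormone inside the cell, Ppargc1a (PGC-1α) drives the making of mitochondria, and Elovl3 lengthens fatty acids in BAT exposed to cold. Cidea, Cidec and Plin1 coat and enlarge the lipid droplet, and Adipoq encodes adiponectin, the hormone that fat cells of all kinds secrete. As a set they are used to tell brown from white fat cells, since white fat cells share Adipoq, Plin1 and Cidec and hold little Ucp1. Among stromal cells, those that begin to turn into fat cells switch on the nuclear receptor gene Pparg before most of the set.

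In GRCm38, the build of the annotation used, Ucp1 (ENSMUSG00000031710) lies on chromosome 8 from 83290352 to 83298452 on the plus strand and Adipoq (ENSMUSG00000022878) on chromosome 16 from 23146536 to 23158028 on the plus strand. Cidec lies on chromosome 6 from 113424634 to 113435760, Plin1 on chromosome 7 from 79720218 to 79732903, Dio2 on chromosome 12 from 90724552 to 90738438 and Ppargc1a on chromosome 5 from 51454250 to 51567726, all on the minus strand, and Elovl3 on chromosome 19 from 46131897 to 46135694 on the plus strand. Cidea, Elovl3 and Dio2 each overlap a gene on the other strand, which bears on their counts only if reads were counted without regard to strand.

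Promoter windows of 300 bases, from 250 before to 50 after the start of the gene, were found in RefSeq (GRCm38.p6) for 6 of the 8 genes. The start is that of RefSeq, which can differ from the annotated gene ends above, and the Dio2 window lies wholly upstream of the end given there. Those of Ucp1, Adipoq and Dio2 are shown, because Ucp1 and Adipoq moved in opposite directions between WT and HFD and the Dio2 window held 3 of the motifs searched. Capitals mark matches, on either strand, to the TATA box TATAAA, to the cAMP response element TGACGTCA, to the C/EBP-like pattern TTGCNNCAA or to AGGTCA, the hexamer that PPARG and other nuclear receptors bind.
Ucp1, chr8:83290098-83290397, plus strand: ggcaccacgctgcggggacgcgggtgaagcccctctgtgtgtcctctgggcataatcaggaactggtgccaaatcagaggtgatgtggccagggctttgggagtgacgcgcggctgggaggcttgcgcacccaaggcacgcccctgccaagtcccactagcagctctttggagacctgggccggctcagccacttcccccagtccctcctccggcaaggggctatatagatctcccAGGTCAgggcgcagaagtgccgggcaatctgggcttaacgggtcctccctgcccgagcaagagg
Adipoq, chr16:23146286-23146585, plus strand: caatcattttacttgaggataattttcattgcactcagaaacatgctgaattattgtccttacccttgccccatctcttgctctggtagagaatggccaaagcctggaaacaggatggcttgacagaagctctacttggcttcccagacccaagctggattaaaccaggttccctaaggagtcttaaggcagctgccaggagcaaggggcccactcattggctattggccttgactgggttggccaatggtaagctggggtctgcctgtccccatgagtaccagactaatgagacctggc
Dio2, chr12:90738989-90739288, minus strand: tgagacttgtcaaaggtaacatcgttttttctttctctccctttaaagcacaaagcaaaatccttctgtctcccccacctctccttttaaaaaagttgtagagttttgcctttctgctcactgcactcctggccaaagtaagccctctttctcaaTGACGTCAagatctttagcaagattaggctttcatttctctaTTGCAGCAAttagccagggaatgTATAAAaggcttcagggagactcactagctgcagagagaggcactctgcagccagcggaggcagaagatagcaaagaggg
The Ucp1 window held 1 AGGTCA, which 16.3% of all 32817 windows hold. The Dio2 window held the TATA box (13.6% of windows), the full cAMP response element (1.79%) and the C/EBP-like pattern (2.08%), which do not overlap. None of these letters, nor the PPAR-RXR element (that hexamer repeated after any 1 base, in 0.0396% of windows), was found in the windows of Adipoq, Cidec (2 windows), Plin1 or Ppargc1a.

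The 8 genes made up few of the UMIs in every library, and their number and make-up differed. At least 1 UMI of the set was present in 4.59% of barcodes in WT (382 of 8318, 95% exact binomial interval 4.15 to 5.06), 4.36% in 8-week db/db (4.07 to 4.67), 1.43% in 16-week db/db (1.15 to 1.75) and 35.5% in HFD (34.8 to 36.2). HFD thus stood far above the other 3 libraries in the share of barcodes touched. The summed level, however, was 117 CPM in WT (6022 UMIs), 18.9 CPM in 8-week db/db (1166 UMIs), 10.2 CPM in 16-week db/db (292 UMIs) and 229 CPM in HFD (13131 UMIs). WT had a level 6.22 times that of 8-week db/db although about the same share of its barcodes held a UMI of the set. Against WT, the log2 ratio of the summed level was -2.64 in 8-week db/db (interval -2.73 to -2.55), -3.52 in 16-week db/db (-3.69 to -3.35) and 0.97 in HFD (0.92 to 1.01).

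**Figure D1:**
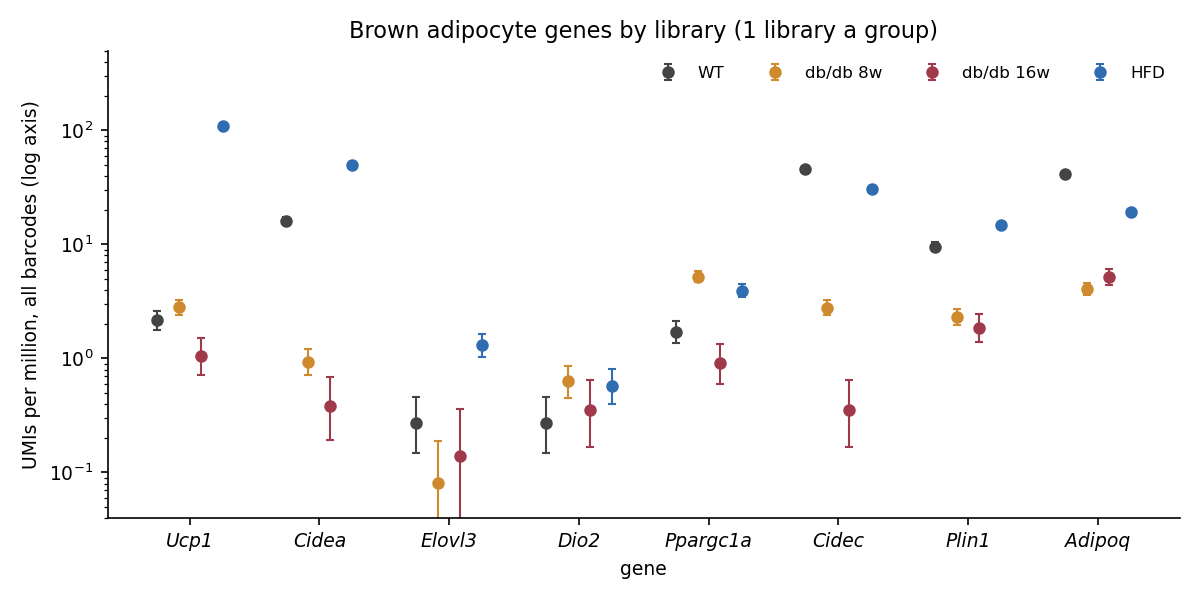
Level of each of the 8 genes over all barcodes of a library, in CPM on a log axis, with 1 point for each of the 4 libraries and bars for the exact 95% Poisson interval. Ucp1 in HFD stood at 108 CPM against 1.05 to 2.83 CPM in the other libraries, whereas Cidec and Adipoq were highest in WT at 45.6 and 41.5 CPM.

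Ucp1, the thermogenic member, had 2.16 CPM in WT, 2.83 CPM in 8-week db/db, 1.05 CPM in 16-week db/db and 108 CPM in HFD. It was found in 0.421%, 0.836%, 0.215% and 21.4% of barcodes in that order. The HFD value was 50.2 times that of WT, with a log2 ratio of 5.65 (5.38 to 5.93), and no other member rose as far in any library. Cidea, its partner in brown fat, had 16.2 CPM in WT, 0.938 CPM in 8-week db/db, 0.386 CPM in 16-week db/db and 50.1 CPM in HFD. It was 3.10 times higher in HFD than in WT, and 17.2 and 41.9 times lower in 8-week db/db and 16-week db/db. Elovl3 was sparse, with 14, 5, 4 and 75 UMIs in WT, 8-week db/db, 16-week db/db and HFD, and its log2 ratio of HFD to WT was 2.26, with a fold of 4.80. Ucp1, Cidea and Elovl3 were thus all highest in HFD.

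Of the genes of fat cells at large, Cidec and Adipoq followed another order. Cidec had 45.6 CPM in WT, 2.78 CPM in 8-week db/db, 0.351 CPM in 16-week db/db and 30.9 CPM in HFD. Adipoq had 41.5 CPM in WT, 4.06 CPM in 8-week db/db, 5.19 CPM in 16-week db/db and 19.4 CPM in HFD. Both were highest in WT, and the intervals of no other library reached the WT value. For Adipoq the log2 ratio of HFD to WT was -1.10 (-1.21 to -0.99), opposite in sign to that of Ucp1. Plin1 had 9.58, 2.33, 1.86 and 14.7 CPM in WT, 8-week db/db, 16-week db/db and HFD, so that it was lowest in both db/db libraries and highest in HFD. Plin1 thus ran in the order of Cidea and not in that of Cidec or Adipoq.

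Ppargc1a was highest in 8-week db/db, as was Dio2 by a narrow margin over HFD (0.631 against 0.576 CPM). Ppargc1a had 1.71 CPM in WT, 5.21 CPM in 8-week db/db, 0.912 CPM in 16-week db/db and 3.93 CPM in HFD, and was the single member highest in 8-week db/db by more than its interval. Dio2 had 14 UMIs in WT, 39 in 8-week db/db, 10 in 16-week db/db and 33 in HFD, from 0.273 to 0.631 CPM, with a log2 ratio of 8-week db/db to WT of 1.21 (0.30 to 2.21). Since a 3′ UMI is counted once per transcript, levels were not divided by gene length.

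By a rule of a 2-fold difference in CPM and at least 50 UMIs in both libraries together, 2 members were higher (Dio2 and Ppargc1a) and 4 lower in 8-week db/db among the 7 with enough UMIs, where 9.20% of 14464 genes were higher and 6.31% lower. In 16-week db/db, 0 of 6 were higher and 5 were lower, where 18.2% of all genes were higher and 30.0% lower. In HFD, 4 of 7 were higher and Adipoq alone was lower, where 19.0% of all genes were higher and 12.8% lower. The median log2 ratio was -2.04, -2.68 and 1.20 over these members and -0.02, -0.29 and 0.10 over all genes. In pooled SVF, fewer cells of a kind and less RNA per cell cannot be told apart.

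The wild-type level came from a handful of barcodes. In WT, 36 barcodes of 8318 (0.433%) held at least 10 UMIs of the set each, and together they held 5616 of the 6022 UMIs, or 93.3%. They were deep, with a median of 29959.5 UMIs against 4129 UMIs over the library, and 32 of the 36 were at 15% mitochondrial UMIs or above. By gate, 23 were stromal, 6 myeloid, 2 mixed and 5 without a gate, and none was endothelial. Adipoq and Plin1 were each present in 35 of the 36, Cidec in 34, Cidea in 28 and Ppargc1a in 18, but Ucp1 in only 6. Of their UMIs, 2216 were Cidec, 2022 Adipoq, 785 Cidea, 455 Plin1 and 81 Ucp1. Of other genes that fat cells use, they held 97.2% of the UMIs of Cfd (adipsin), 96.3% of Retn (resistin), 87.2% of Cox8b, a subunit of the respiratory chain of brown fat, 63.1% of Fabp4, the fatty acid binding protein that endothelial cells and macrophages also use, and 43.1% of Pparg.

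These barcodes were not all alike. The richest held 121241 UMIs, of which 27.1% were mitochondrial, and had 47 UMIs of Ucp1, 160 of Cidea, 178 of Cidec, 176 of Adipoq, 45 of Plin1 and 93 of Cox8b. The next richest, with 12.3% mitochondrial UMIs, had 276 of Cidec and 132 of Adipoq and 0 of both Ucp1 and Cidea. In all, 7 of the 36 held Adipoq with neither Ucp1 nor Cidea. Ucp1 and Cidea together thus ranged from 0 to over the Adipoq count among barcodes of the same library. Barcodes with 4 or more of the 8 genes numbered 29 in WT, all of them at 15% mitochondrial UMIs or above.

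In the db/db libraries barcodes with at least 10 UMIs of the set were fewer. Of the 4 WT ones under 15% mitochondrial UMIs, 3 held Adipoq with neither Ucp1 nor Cidea. In 8-week db/db, 8 barcodes held at least 10 UMIs of the set, with 18.4% of its UMIs. Of these, 6 were under 15% mitochondrial UMIs, in the stromal gate, and had Adipoq and Plin1 with no Ucp1 and no Cidea. The richest held 34 UMIs of Adipoq, 21 of Plin1, 5 of Cidec and 1520 of Fabp4 among 23658 UMIs. The remaining 2 were above the mitochondrial limit and had 8 and 5 UMIs of Ucp1. In 16-week db/db, 4 barcodes held 65.1% of the UMIs of the set, and the richest, with 0.0744% mitochondrial UMIs, had 60 of Adipoq, 26 of Plin1, 2547 of Fabp4 and none of Ucp1 or Cidea. It was the only 1 of the 4 with neither Ucp1 nor Cidea. Another, outside all gates, held 16 of the 30 Ucp1 UMIs of that library and 14 of Cox8b. Cfd, which had 572 CPM in WT, was at 0.615 CPM in 8-week db/db and 0.456 CPM in 16-week db/db, and had 0 UMIs in the 8 barcodes of 8-week db/db.

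**Figure D2:**
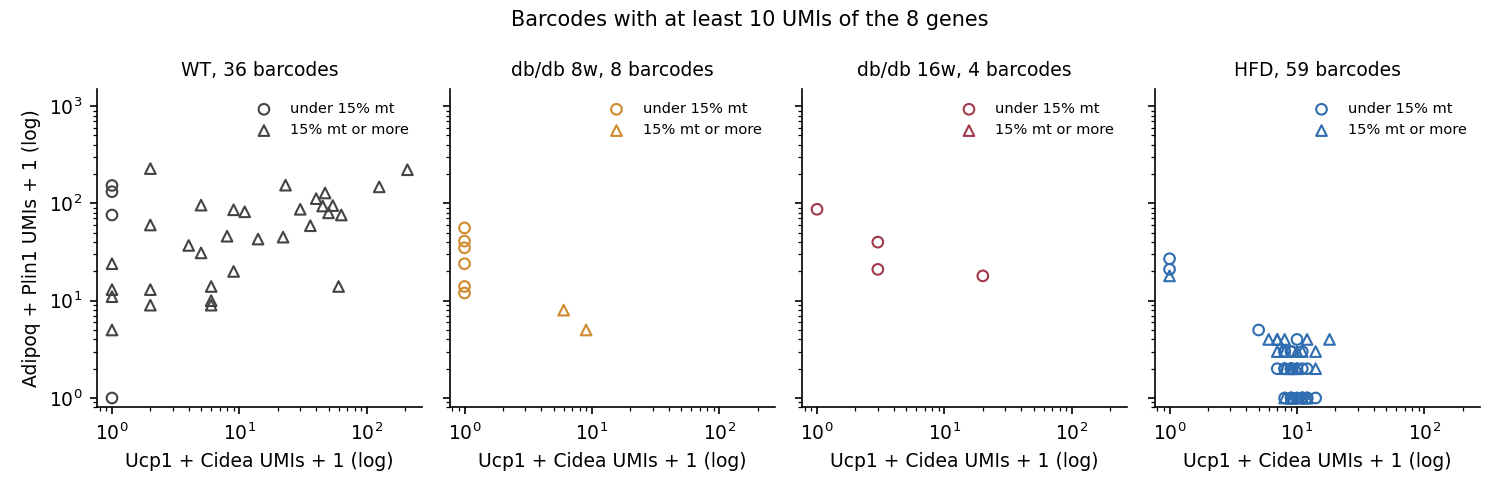
Each barcode with at least 10 UMIs of the 8 genes, by its UMIs of Ucp1 and Cidea together (x axis) and of Adipoq and Plin1 together (y axis), both plus 1 on log axes, with circles for barcodes under 15% mitochondrial UMIs and triangles for the others. The 36 WT barcodes reach 608 UMIs of the set, the 6 circles of 8-week db/db sit at 0 Ucp1 and Cidea, and the 59 HFD barcodes lie low, with at most 28 UMIs of the set.

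HFD was spread over many barcodes. Its 59 barcodes with at least 10 UMIs of the set held 5.39% of the UMIs, and 42 of the 59 were in the endothelial gate. The remaining 17381 barcodes held 12423 UMIs. Of their barcodes with Ucp1, 64.4% had exactly 1 UMI of it.

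Without the barcodes of at least 10 UMIs, a choice made after the data were seen, the order of the libraries changed. Cidec was then at 2.49 CPM in WT (2.07 to 2.97) and 2.61 CPM in 8-week db/db (2.22 to 3.05), and Adipoq at 2.19 CPM (1.80 to 2.64) and 2.38 CPM (2.01 to 2.80), so that the intervals of both genes overlapped. Ucp1 was at 0.598 CPM in WT (0.404 to 0.854), 2.63 CPM in 8-week db/db (2.24 to 3.06), 0.422 CPM in 16-week db/db (0.218 to 0.737) and 103 CPM in HFD (101 to 106). Ppargc1a was at 0.957 CPM in WT (0.706 to 1.27) and 5.17 CPM in 8-week db/db (4.62 to 5.77). The log2 ratio of the summed level to WT became 0.93 (0.76 to 1.10) in 8-week db/db, the opposite sign to that over all barcodes, -1.17 (-1.50 to -0.86) in 16-week db/db and 4.75 (4.61 to 4.90) in HFD. The barcodes left out held 93.3% of the UMIs of the set in WT, 18.4% in 8-week db/db, 65.1% in 16-week db/db and 5.39% in HFD. As they were picked by these same counts, their removal raised the ratios to WT by construction. The sign in 8-week db/db thus depended on whether these barcodes were counted, and no more is read from the change in HFD.

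In HFD the set was present in every gate, but not evenly. Among barcodes under 15% mitochondrial UMIs, Ucp1 was found in 40.9% of 1481 endothelial barcodes (38.4 to 43.5), 11.6% of 1857 myeloid (10.2 to 13.2), 10.4% of 1617 stromal (8.94 to 12.0) and 14.7% of 34 lymphoid barcodes (4.95 to 31.1). Lymphocytes should lack Ucp1. The interval of the lymphoid gate held both the myeloid and the stromal share. Median depth was 2720.5 UMIs in the lymphoid gate and 5800 and 5030 UMIs in the myeloid and stromal gates. Over both mitochondrial classes Ucp1 was found in 20 of 182 lymphoid barcodes, 11.8% of myeloid and 12.4% of stromal ones. Whether the myeloid and stromal shares came from expression in those cells or from free RNA was not tested. Under 15% mitochondrial UMIs the endothelial share lay above those of the other gates, at a median of 4416 UMIs. When every barcode was thinned to 1000 UMIs, with shallower ones left out, Ucp1 was found in 16.7% of endothelial barcodes (15.7 to 17.9), 4.69% of myeloid (4.07 to 5.37), 5.43% of stromal (4.65 to 6.29) and 5.52% of lymphoid barcodes (2.68 to 9.93), where both mitochondrial classes are counted.

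The number of Ucp1 UMIs did not rise steadily with the depth of myeloid and stromal barcodes. In HFD the mean was 0.190 Ucp1 UMIs per myeloid barcode under 1000 UMIs and 0.207 in those of 8000 UMIs or more (0.171 to 0.248). In the stromal gate it was 0.226, 0.205, 0.146, 0.151 and 0.309 (0.230 to 0.406) over the 5 bins. In the endothelial gate it rose at each step, from 0.177 under 1000 UMIs (0.103 to 0.284) to 0.288, 0.659, 1.01 and 1.16 (0.996 to 1.34). On the CPM scale the myeloid level fell from 205 to 15.2 CPM over the same bins, and the endothelial level lay between 111.7 and 234 CPM. The CPM of shallow barcodes was thus high in every gate, also where their number of Ucp1 UMIs was no higher.

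**Figure D3:**
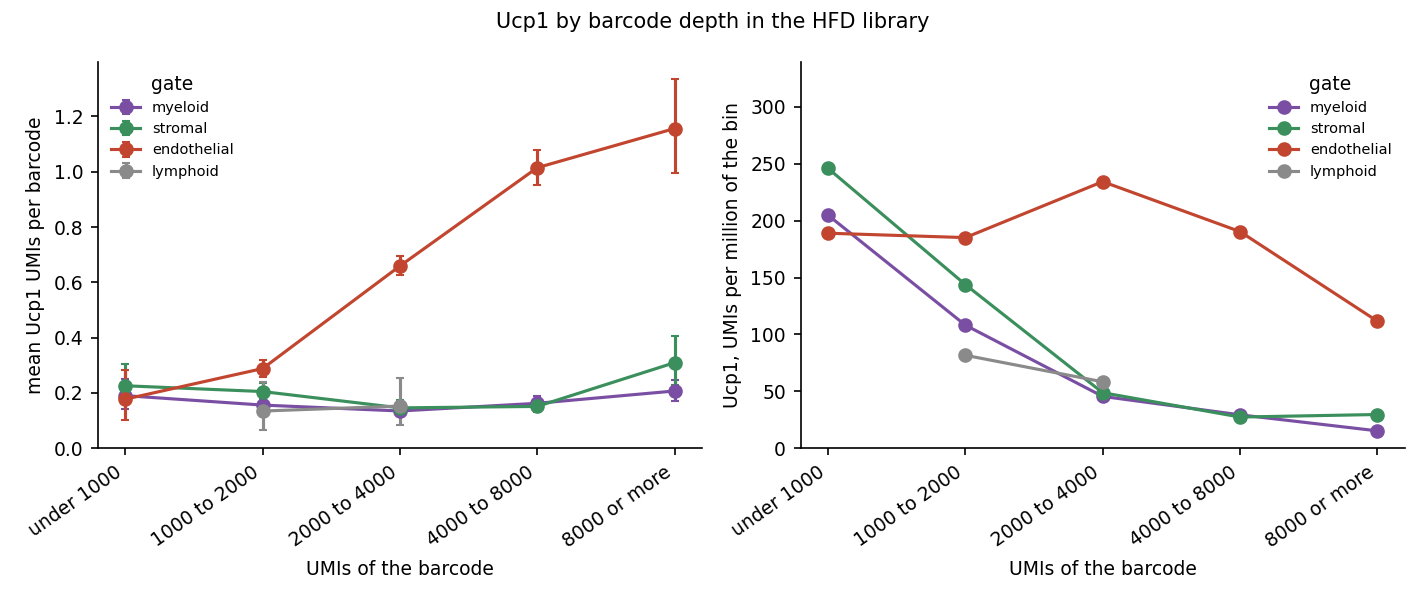
Ucp1 in the HFD library by depth of the barcode, as mean UMIs per barcode with the exact 95% Poisson interval (left) and as CPM of the bin (right), for gates and bins with at least 20 barcodes. The myeloid and stromal means stay between 0.134 and 0.309 UMIs per barcode while the endothelial mean climbs to 1.16.

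Cidea was more frequent in barcodes with Ucp1 than in those without it, although most barcodes with Ucp1 had no Cidea. In HFD, Cidea was present in 31.2% of the 3732 barcodes with Ucp1 (29.8 to 32.8) and in 7.29% of the 13708 without it (6.86 to 7.74), at median depths of 2454 and 2220 UMIs. The same held within the endothelial gate (38.5% against 11.5%), the myeloid gate (18.7% against 5.19%) and the stromal gate (21.2% against 4.74%). In these gates median depth was 3107 against 2397 UMIs, 3188 against 3130 UMIs and 3058 against 3380 UMIs, so endothelial barcodes with Ucp1 were also deeper. In the lymphoid gate Cidea was in 3 of 20 barcodes with Ucp1 and 6 of 162 without. Cidec followed Ucp1 likewise, in 18.8% of barcodes with it (700 of 3732) against 822 of the 13708 without.

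The ratio of Ucp1 to Cidea was nearly fixed within HFD. Among barcodes under 15% mitochondrial UMIs it was 1.69 Ucp1 UMIs per Cidea UMI in the myeloid gate (1.40 to 2.06), 1.95 in the stromal gate (1.56 to 2.45) and 2.10 in the endothelial gate (1.89 to 2.32), and in those at 15% or above it was 2.22, 2.19 and 2.20. The intervals of these 6 values all overlapped. Cidec per Cidea lay between 0.576 and 0.714 in the same 6 classes. Plin1 and Adipoq departed from this. Under 15%, Plin1 had 0.769 UMIs per Cidea UMI in the stromal gate (0.580 to 1.02) against 0.255 in the endothelial gate (0.211 to 0.307), and Adipoq 0.606 in the myeloid gate (0.470 to 0.778) against 0.346 in the endothelial gate (0.292 to 0.408). Between libraries the ratio of Ucp1 to Cidea over all barcodes was 0.134 in WT (0.109 to 0.163), 3.02 in 8-week db/db (2.23 to 4.13), 2.73 in 16-week db/db (1.33 to 6.03) and 2.16 in HFD (2.07 to 2.26). In the 36 WT barcodes rich in the set it was 0.103 (0.0810 to 0.130) and in the rest of that library 0.667 (0.406 to 1.08). WT alone held less Ucp1 than Cidea.

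**Figure D4:**
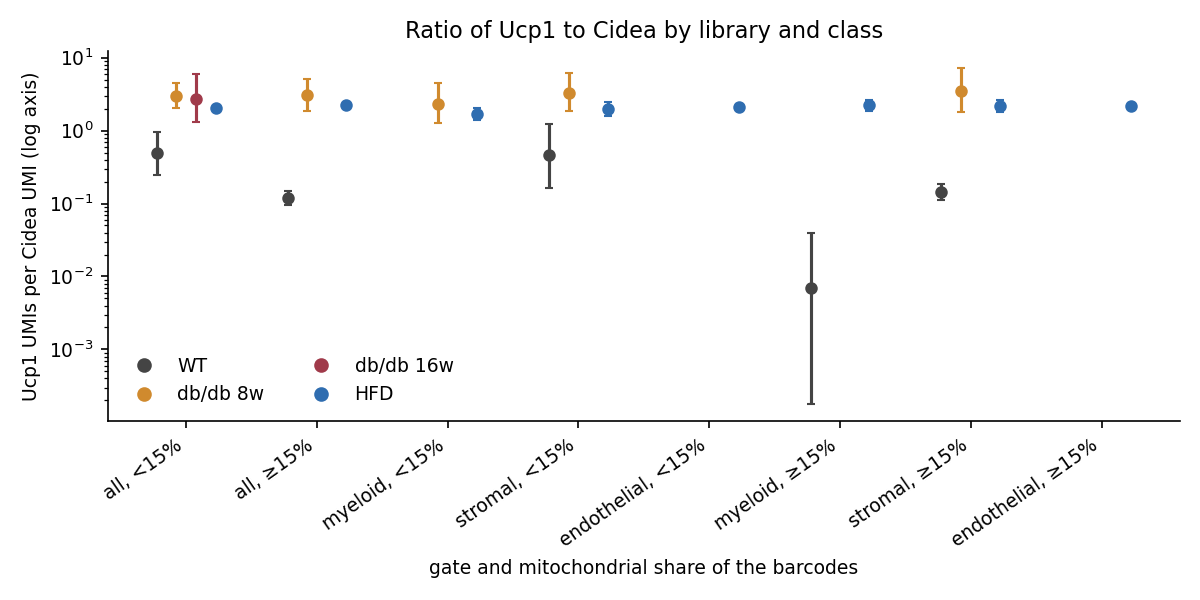
Ucp1 UMIs per Cidea UMI (log axis) by library and mitochondrial share, over all barcodes and in the myeloid, stromal and endothelial gates, for classes with at least 20 UMIs of both genes together and some of each, with 95% intervals from the exact binomial. The HFD points drawn lie between 1.69 and 2.24 and the WT points of barcodes at 15% or more lie at 0.145 or below.

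Barcodes at 15% mitochondrial UMIs or above were compared with the rest within each library, which repeats the contrast in 4 libraries. Ucp1 had 17.0 CPM above the limit and 0.328 CPM below it in WT, 10.7 and 1.90 CPM in 8-week db/db, and 181 and 57.1 CPM in HFD, while in 16-week db/db all 30 of its UMIs lay below the limit, where only 68 barcodes were above it. It was thus higher above the limit in each of the 3 libraries that had Ucp1 in both classes. The edgeR quasi-likelihood test with library as a block gave Ucp1 a log2 fold change of 3.13 (SE 0.57, adjusted p = 0.0492), and it was the only 1 of 8 members called higher at an adjusted p under 0.05, where 0.384% of 15887 genes were called higher and 0.157% lower. None was called lower. The other members had log2 fold changes of 3.87 (Cidea, adjusted p = 0.0795), 3.37 (Cidec, 0.0516), 2.81 (Adipoq, 0.0708), 2.78 (Plin1, 0.0746), 1.94 (Elovl3, 0.0649), 1.44 (Ppargc1a, 0.137) and 0.92 (Dio2, 0.220) in the same test.

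That call sat at the threshold and depended on the library left out. Without 16-week db/db, whose class above the limit is so small, no member and no gene at all was called, although 6 of 8 members had an unadjusted p under 0.05. Without WT 6 members were called, where 917 of 15615 genes were higher and 633 lower. Without 8-week db/db it was 7, where 470 of 15648 genes were higher and 365 lower. Without HFD it was 6 of the 7 tested, where 341 of 14432 genes were higher and 178 lower. Calls over all genes thus rose as well. All log2 fold changes of the members stayed above 0 in each of the alternatives run for this contrast. In HFD the classes differed in CPM while their means per barcode were close, with 0.359 Ucp1 UMIs per barcode above the limit and 0.349 below it. For Cidea they were 0.161 and 0.172, and for Adipoq 0.0602 and 0.0711. In WT the mean rose with the mitochondrial share as well, from 0.0614 to 0.757 for Adipoq. Few barcodes carried the WT difference. The 29 WT barcodes with at least 4 members, all above the limit, held 1704 of the 1764 Adipoq UMIs of that class. They also held 81 of its 96 Ucp1 UMIs.

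**Figure D5:**
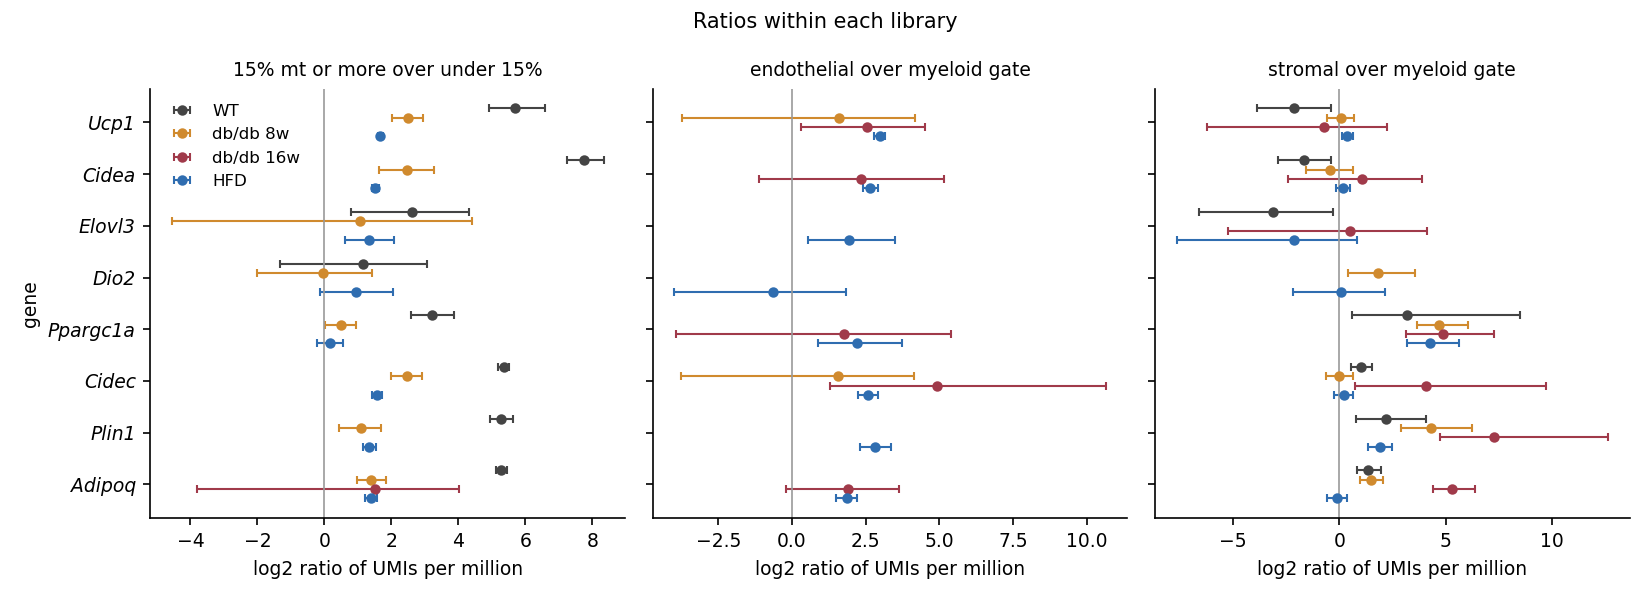
Log2 ratio of the level (CPM) within each library, for barcodes at 15% mitochondrial UMIs or more against the rest (left), and under 15% for the endothelial (middle) and stromal (right) against the myeloid gate, with exact conditional binomial 95% intervals. Ratios with 0 UMIs on either side are not drawn. Ucp1 lies at 5.70 in WT and 1.66 in HFD on the left, and Ppargc1a lies above 3 in all 4 libraries on the right.

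Endothelial barcodes held more of the set than myeloid ones. Among barcodes under 15% mitochondrial UMIs, Ucp1 had 162 CPM in the endothelial and 20.7 CPM in the myeloid gate of HFD, 5.37 CPM (1 UMI) and 1.77 CPM in 8-week db/db, and 2.12 CPM (4 UMIs) and 0.364 CPM in 16-week db/db. WT had just 17 endothelial barcodes, with 0 UMIs of the set. The edgeR test called 4 of the 6 members tested higher, Ucp1 (log2 fold change 2.17, SE 0.44, adjusted p = 0.000574), Cidec (2.16), Cidea (1.86) and Plin1 (2.32), where 20.3% of 13641 genes were higher and 25.0% lower. Adipoq (1.19, adjusted p = 0.260) and Ppargc1a (1.57, adjusted p = 0.0723) did not pass the same edgeR test. Elovl3 and Dio2 had too few UMIs to be tested between gates. The calls rested on HFD, since without it 0 of 5 members were called and 0 had an unadjusted p under 0.05. Of all 12896 genes in that fit 1976 were higher and 2479 lower. With DESeq2, which put 3517 genes higher and 2923 lower in place of 2773 and 3408, 4 members were called as well, with Ppargc1a in place of Plin1.

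The members called in the stromal gate differed in part from those of the endothelial gate, with Plin1 called in both. Plin1 was called higher in the stromal than in the myeloid gate (log2 fold change 3.47, SE 0.67, adjusted p = 0.000273, edgeR), as were Ppargc1a (4.16, SE 0.50) and Adipoq (1.82, SE 0.67), 3 of 6 members where 25.5% of genes were higher and 24.0% lower. Ucp1 (-0.42, adjusted p = 0.532) and Cidea (-0.60, adjusted p = 0.365) were not called by that test. Ppargc1a had 1.10 CPM in stromal and 0.122 CPM (1 UMI) in myeloid barcodes of WT, 8.62 and 0.334 CPM (7 UMIs) in 8-week db/db, 4.59 and 0.156 CPM in 16-week db/db, and 9.64 and 0.503 CPM in HFD. The WT myeloid value lay below the floor of 3 counts. In 16-week db/db 3 myeloid barcodes held Ppargc1a, over both mitochondrial classes. The stromal level of Ppargc1a was higher in all 4 libraries and stood apart from that of Ucp1, which had 0.197 and 0.857 CPM in WT, 1.84 and 1.77 CPM in 8-week db/db, 0.219 CPM (1 UMI) and 0.364 CPM in 16-week db/db, and 26.8 and 20.7 CPM in HFD. The call for Adipoq was lost when barcodes with at least 10 UMIs of the set were left out (-0.47, adjusted p = 0.480, edgeR), and those for Plin1 and Ppargc1a were not. With DESeq2 4491 genes were higher and 2648 lower in place of 3482 and 3275, with the same 3 members called.

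Between the lymphoid and the myeloid gate edgeR called 0 of 6 members, with 1 at an unadjusted p under 0.05, and DESeq2 called 1. Of all genes, 7.06% were higher and 21.1% lower with edgeR, and DESeq2 moved the split from 963 higher and 2878 lower to 2089 and 1803. The lymphoid gate held from 19 to 108 barcodes a library under the mitochondrial limit, and 0 UMIs of the set in WT and 16-week db/db. In WT, 0 of 19 barcodes with Ucp1 allows a share of up to 15.8% (a floor of 3 counts), and the exact binomial interval reached 17.6%.

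Stromal barcodes with a UMI of Pparg were compared with those without. They made up 4.68% of stromal barcodes in WT, 7.19% in 8-week db/db, 11.4% in 16-week db/db and 20.7% in HFD, and were deeper, with a median of 10754, 6535, 4274 and 5770 UMIs against 6639.5, 2724, 2643.5 and 4844 UMIs. Adipoq had 127 CPM with Pparg and 0.873 CPM without in WT, 28.1 and 1.48 CPM in 8-week db/db, 71.6 and 11.6 CPM in 16-week db/db, and 12.2 and 5.24 CPM in HFD. Plin1 had 24.9 and 0.572 CPM, 24.4 and 0.680 CPM, 31.7 and 2.69 CPM, and 19.2 and 7.78 CPM in the same order. Both were higher with Pparg in 4 of 4 libraries. In edgeR they were the 2 of 6 members called higher (Adipoq 4.34, SE 0.69, adjusted p = 0.00578, and Plin1 3.78, SE 0.56, adjusted p = 0.00427), where 1.82% of 12384 genes were higher and 3.17% lower. Cidec missed the threshold (3.80, adjusted p = 0.0503) and Ucp1 (0.31, adjusted p = 0.678) and Cidea (0.28, adjusted p = 0.811) were not called by edgeR.

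Few barcodes carried this difference. In WT the 305 Adipoq UMIs of Pparg-positive barcodes came from 5 of 206 barcodes, and in 16-week db/db 60 of 61 came from a single one. Without barcodes of at least 10 UMIs of the set, Plin1 alone was called and Adipoq was at 0.11 (adjusted p = 0.928, edgeR). Leaving out 8-week db/db removed both calls, in a fit where 19 of 11926 genes were higher and 44 lower.

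Other genes of brown fat and of fat storage were taken from lists written with earlier results of these data known. Of 15 genes of brown fat mitochondria and heat production, 12 had enough UMIs against WT in each db/db library and 14 in HFD. By the rule of a 2-fold difference 5 were lower and 0 higher in 8-week db/db, 5 lower and 1 higher in 16-week db/db, and 8 higher and 2 lower in HFD. Over all genes the shares higher and lower were 9.20% and 6.31%, 18.2% and 30.0%, and 19.0% and 12.8% in these libraries. Cox8b had 15.7 CPM in WT, 5.45 CPM in 8-week db/db, 2.18 CPM in 16-week db/db and 155 CPM in HFD. Fabp3, a fatty acid binding protein of muscle and brown fat, had 2.18, 2.64, 2.07 and 137 CPM, and Cox7a1, a further respiratory subunit, 4.91, 4.95, 19.9 and 62.4 CPM. Ebf2, which marks brown preadipocytes and is made by stromal cells, ran the other way with 174, 83.0, 20.9 and 44.0 CPM. Letmd1, a mitochondrial gene, differed little with 13.3, 10.1, 8.81 and 18.2 CPM, and S100b was at 2.90, 4.88, 2.14 and 16.0 CPM.

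Of 18 genes of lipid stores and hormones, 12 were lower and 2 higher in 8-week db/db, 10 of 16 lower and 1 higher in 16-week db/db, and 6 higher and 3 lower in HFD. Cfd fell from 572 CPM in WT to 23.3 CPM in HFD, and Scd1, which desaturates fatty acids, had 454 CPM in WT, 49.8 CPM in 8-week db/db, 24.7 CPM in 16-week db/db and 188 CPM in HFD. Pck1, which supplies the glycerol backbone of stored fat, had 65.5, 2.01, 0.526 and 84.4 CPM. Pparg itself had 12.9, 27.5, 42.0 and 95.0 CPM, higher in all 3 libraries of obese mice, Pnpla2, the first lipase of the droplet, 76.1, 50.6, 103 and 115 CPM, and Acsl1 52.7, 16.6, 25.9 and 57.4 CPM. The 5 genes that endothelial cells or macrophages also use (Fabp4, Lpl, Cd36, Plin2 and Fabp5) had no member lower in any library, with 4, 5 and 4 of 5 higher in 8-week db/db, 16-week db/db and HFD. Fabp4 had 593, 2161, 7649 and 12843 CPM, the fatty acid transporter gene Cd36 225, 924, 2039 and 2829 CPM, and Fabp5 31.8, 448.5, 1570 and 864 CPM. Lpl, which frees fatty acids from lipoproteins, had 1227, 2068, 2626 and 2316 CPM, and Plin2, a droplet coat of many cell types, 253, 748, 1449 and 804 CPM.

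The same lists were read in the edgeR fits. The shares of all genes called higher and lower were 0.384% and 0.157% between mitochondrial classes, 20.3% and 25.0% in the endothelial, 25.5% and 24.0% in the stromal and 7.06% and 21.1% in the lymphoid gate, and 1.82% and 3.17% with Pparg. Between classes of mitochondrial share 2 of 14 genes of the brown fat list were called higher, Fabp3 (log2 fold change 1.52) and Ppara (2.03), both at an adjusted p of 0.0492 in edgeR, and 0 of 18 of the lipid list, with medians of 1.78 and 2.49 against -0.03 over all genes. Between endothelial and myeloid barcodes 6 of 11 and 9 of 17 were higher and none lower, with Pparg at 2.89 and Pck1 at 2.59, and medians of 1.78 and 1.67 against -0.12. Between stromal and myeloid barcodes 4 were higher and 2 lower of 11, led by Ebf2 at 5.87, and 2 were higher and 2 lower of 17. Between lymphoid and myeloid barcodes 0 were higher and 1 lower of 11, and 1 was higher and 3 lower of 17, against a median of -0.60 over all genes. With Pparg, 1 of 11 and 6 of 16 were higher in the stromal gate, the 6 including Pparg, which made the split. Of the 5 shared genes, 0 were called between mitochondrial classes, 1 was higher (Fabp4) and 1 lower (Plin2) in endothelial barcodes, 3 were lower in stromal and 5 in lymphoid barcodes, and 4 were higher with Pparg.

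The genes whose level ran most like the sum of the 8 were, over 26 groups of at least 100 barcodes formed by library, gate and mitochondrial class, Ppara (Pearson's r = 0.94 on log2(CPM + 1)), Adig (0.94), Slc36a2 (0.93), Pck1 (0.92), Cox8b (0.92), Cdo1 (0.92), Ces1d (0.90), Plin5 (0.89), Acvr1c (0.89) and Chpt1 (0.89), among 13520 genes. Most like Ucp1 were Apol8 (0.85), A230087F16Rik (0.85), Nepn (0.84), Cox7a1 (0.84) and Gm8251 (0.83). Among the members themselves, Cidea (0.70) and Elovl3 (0.64) ran nearest to Ucp1, and Adipoq (0.29) and Ppargc1a (0.17) farthest. The groups share 4 libraries, and those of shallow barcodes share their depth, so these values describe the groups and were not tested.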

How the data were processed

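Single-cell suspensions of SVF were profiled with the 10x Genomics 3′ method. The authors deposited raw UMI counts, a whole number for each gene in each called barcode, made with Cell Ranger on mm10. The submitters' processing notes name version 7.1.0 and the headers of the count files 6.0.0. Of the 32285 gene IDs, 99.6% were found in the GENCODE annotation of GRCm38. Empty droplets and ambient RNA correction were not analysed here, no doublet caller was run, and barcodes matching more than 1 gate were kept apart as mixed.

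Counts were summed over barcodes and divided by all UMIs of the class (CPM). Levels were given exact Poisson intervals, shares exact Clopper-Pearson intervals, and ratios exact conditional binomial intervals (95%), with a floor of 3 counts. Total counts per library are given with the results, and intervals cover counting error only.

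Contrasts repeated in the 4 libraries were fitted to summed counts in edgeR 4.0.16 (R 4.3.3), with TMM, filterByExpr, quasi-likelihood F tests, library as a block and Benjamini-Hochberg adjustment over all genes tested. SEs are log2 fold changes divided by the root of F. As libraries differ by group, these p-values measure agreement over 4 unlike libraries and not over replicates of a group. Alternatives used DESeq2 1.42.0, no filter, mitochondrially encoded genes left out, other limits, a stricter gate (4 genes, at most 1 of any other list) and each library left out.

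All 8 members were named in every comparison, together with the 6 genes of each list with the most UMIs and the 10 and 5 genes most alike in pattern (at least 200 UMIs). Members and lists were chosen with earlier results of these data known.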

Additional observations from a re-analysis of the deposited data

Results flagged for a closer look

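In 4 cases the ratio between gates lay on opposite sides of 0 in different libraries, each with a counting interval that left out 0. These differences between libraries were not tested, since each group has 1 library. The log2 ratio of the Ucp1 level in stromal over myeloid barcodes under 15% mitochondrial UMIs was -2.12 in WT (7 UMIs on each side, interval -3.86 to -0.38) and 0.37 in HFD (0.12 to 0.62). That of Adipoq in endothelial over stromal barcodes was 1.95 in HFD and -3.42 in 16-week db/db, and that of the summed set was 2.13 in HFD and -2.32 in 16-week db/db (-3.22 to -1.54). For Plin1 it was 0.91 in HFD, while the endothelial barcodes of the other 3 libraries held 0 UMIs of Plin1. In 16-week db/db, 2 stromal barcodes with at least 10 UMIs of the set held 60 and 34 of the 104 Adipoq UMIs of the stromal gate. Of the summed set they held 87 of the 92 UMIs in stromal barcodes with Pparg and 42 of the 78 in those without. The part of single barcodes in the other values was not tested.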

How the results depend on the processing

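Over 346 refits of single members, 273 kept the direction and the side of the threshold, 12 fell below it, 46 rose past it and 15 changed sign. The count of members called between mitochondrial classes moved most, from 1 to 4 with DESeq2, 7 without the filter and 0 with mitochondrially encoded genes left out. It was 2 and 3 with limits of 10% and 20%, and 5 without barcodes of at least 4 members or of at least 10 UMIs of the set. Neither of these exclusions of barcodes was planned for the tests, and that of 10 UMIs was added after the data were seen. Leaving out a library gave 0 to 7 between mitochondrial classes, 0 to 5 for the endothelial, 2 to 3 for the stromal and 0 for the lymphoid gate, and 0 to 3 for Pparg. DESeq2 called 1 member in the lymphoid gate, and 1 remained for Pparg without barcodes of at least 10 UMIs. Calls over all genes ranged over the alternatives from 0 to 1550, 4455 to 6524, 4900 to 8324, 1760 to 3892 and 63 to 1390 in these 5 contrasts. The stricter gate left no endothelial barcode in WT, so that column was dropped.

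The log2 ratio of the summed set to WT, in 8-week db/db, 16-week db/db and HFD, was -3.51, -4.01 and 0.057 as UMIs per barcode, -0.40, -1.02 and 2.63 under 15% mitochondrial UMIs, -4.30, -5.92 (1 UMI) and -1.27 at 15% or above, -0.73, -2.53 and 2.15 in the myeloid gate, -0.27, -1.74 and 3.24 without barcodes of at least 4 members, and 0.93, -1.17 and 4.75 without those of at least 10 UMIs. Without Ucp1 it was -2.84 in 8-week db/db and 0.070 in HFD, and without mitochondrially encoded genes 1.10 in HFD. The sign thus turned in 8-week db/db and in HFD, each under 1 of these choices. The share of barcodes with a UMI of the set was 1.49%, 1.72%, 0.674% and 20.4% in WT, 8-week db/db, 16-week db/db and HFD when thinned to 1000 UMIs, and 2.47%, 2.71%, 0.898% and 25.8% when thinned to 2000 UMIs.

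The members that changed sign, with their log2 fold change under the alternative and the cause not tested, were these. With DESeq2 Cidea was at 0.54 in the lymphoid gate and -0.27 with Pparg. With the stricter gate Cidea was at 0.16 in the stromal gate and -0.49 with Pparg, and in the lymphoid gate Ucp1 was at -0.65 and Cidec at 0.47. In the stromal gate Cidec was at -0.43 under the limits of the study on genes and UMIs, and Cidec at -0.65 and Adipoq at -0.47 without barcodes of at least 10 UMIs, and Ucp1 ranged from -0.87 to 0.12 (without WT) over the libraries left out. In the same way Ppargc1a ranged with Pparg from -0.28 (without 8-week db/db) to 0.59. Without HFD lay the lowest values of Adipoq (-0.51 to 1.65) and Plin1 (-4.58 to 2.75) in the endothelial gate and of Plin1 (-4.22 to 2.12) and Ppargc1a (-4.51 to 3.82) in the lymphoid gate, where fitted values rest on counts at or near 0. No paired analysis was possible because each group has a single library and the labels give no replicate numbers. This holds between groups, while the contrasts within libraries already had library as a block. Depth limits Elovl3 and Dio2, with 98 and 96 UMIs in all.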
